A study of Mus musculus with 6 samples.

Results

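Solute carriers are membrane proteins that move sugars, amino acids, ions, vitamins and metabolites across the plasma membrane and the membranes of lysosomes, Golgi and mitochondria. They were examined in dendritic cells (DCs), which take up material in tissues and prime T cells in lymph nodes, sorted from peripheral lymph nodes of mice. One group of mice was given broad-spectrum antibiotics orally, by gavage over 10 days (3 arrays), and the other was left without treatment (3 arrays). Strain, sex and age of the mice, the antibiotics, the sorting gate, any mock gavage and whether a sample is 1 mouse or a pool are not given in the sources used here. Total RNA was biotin-labelled and read on an Illumina mouse bead array, and the comparison asks which transcripts differ in DCs after antibiotic treatment. All genes whose symbol on the array begins with Slc and a number were taken, which gave 326 genes. A gene counted as measured when 1 of its probes was detected (its detection p was below 0.05) on 3 or more of 6 arrays, and the probe with the highest mean stood for the gene. This left 110 genes (33.7%), against 5901 of 16593 named genes on the array (35.6%). Of the 110, 4 bear a carrier's name without being carriers: Slc9a3r1 and Slc9a3r2, scaffold proteins that bind a sodium-proton exchanger, Slc4a1ap, named for binding an anion exchanger, and Slc7a6os, named for lying opposite Slc7a6. These 4 are included where the 110 genes are counted as carriers below.

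In a DC, glucose carriers of the Slc2 family feed the glycolysis that accompanies activation, and the Slc7 and Slc38 families bring in amino acids for protein synthesis, glutathione and sensing by the kinase complex mTORC1. Slc25 carriers link the mitochondrial matrix with the cytosol, and zinc, iron and copper carriers of the Slc11, Slc30, Slc31 and Slc39 families set metal levels in the cytosol, Golgi and phagosomes. Slc15a3, Slc15a4, Slc29a3 and Slc46a3 sit in the membranes of endosomes and lysosomes. Slc16a1 and Slc5a8 can carry short-chain fatty acids, which gut bacteria make.

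Some of these genes carry regulatory motifs that respond to nutrients. Shown are 4 promoters that hold such a motif, from genes of the amino acid, sugar and metal groups described here. The letters searched were TGATGCAA, an amino acid response element bound by the stress factor Atf4 with its partners, and TGCACNC or TGCGCNC, the core of the metal response element bound by the zinc sensor Mtf1. Both strands were read over the 250 bases before each RefSeq transcription start (build GRCm38.p6). No base can belong to a match of both motifs. Capitals mark the motif for which a promoter is shown, the metal motif in Slc30a1 and the amino acid motif in the other 3, and where the motif lies on the other strand its reverse complement is capitalized. The windows are chr3:50443614-50443863 (minus strand) for Slc7a11, the cystine-glutamate exchanger, chr14:54417703-54417952 (minus strand) for Slc7a7, a carrier of basic amino acids, chr3:89270571-89270820 (minus strand) for the sugar carrier Slc50a1, and chr1:191906531-191906780 (plus strand) for the zinc exporter Slc30a1.
Slc7a11: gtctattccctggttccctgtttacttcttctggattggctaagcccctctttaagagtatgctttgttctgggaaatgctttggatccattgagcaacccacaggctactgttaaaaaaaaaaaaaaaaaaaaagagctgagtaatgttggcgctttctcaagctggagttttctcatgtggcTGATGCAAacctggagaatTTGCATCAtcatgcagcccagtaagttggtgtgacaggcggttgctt
Slc7a7: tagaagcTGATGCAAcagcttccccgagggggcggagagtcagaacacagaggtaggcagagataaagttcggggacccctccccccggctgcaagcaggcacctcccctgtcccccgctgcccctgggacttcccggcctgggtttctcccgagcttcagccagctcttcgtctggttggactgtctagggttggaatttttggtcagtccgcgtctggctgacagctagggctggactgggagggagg
Slc50a1: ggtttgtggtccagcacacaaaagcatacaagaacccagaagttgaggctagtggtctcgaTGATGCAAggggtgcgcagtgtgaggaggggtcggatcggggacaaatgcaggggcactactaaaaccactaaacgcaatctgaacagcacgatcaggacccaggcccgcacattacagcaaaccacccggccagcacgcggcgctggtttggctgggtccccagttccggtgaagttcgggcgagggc
Slc30a1: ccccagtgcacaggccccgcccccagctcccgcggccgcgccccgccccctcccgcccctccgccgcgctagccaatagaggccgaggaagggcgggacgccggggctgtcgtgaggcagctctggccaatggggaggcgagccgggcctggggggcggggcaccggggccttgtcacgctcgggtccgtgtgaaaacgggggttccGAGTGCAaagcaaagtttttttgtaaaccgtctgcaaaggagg
Slc7a11 held 2 copies of the amino acid response element, which begin 66 and 47 bases before the start, and Slc7a7 and Slc50a1 held 1 copy each, 243 and 189 bases before it. Slc7a7 had 5 RefSeq windows, of which the 1 shown held the match. The Slc50a1 window also held 1 metal response element core, on the other strand and in lower case here. These were the 3 genes with a match among the 86 measured genes with a promoter window (3.49%), against 248 of 27025 genes with a window (0.918%). The metal response element core, a shorter and more frequent word, was found in 30 of the 86 (34.9%), against 6420 of 27025 (23.8%). It was found in 6 of the 12 metal ion carriers with a window, and in Slc30a1 it begins 43 bases before the start. The 86 genes were detected on these arrays, while the 27025 include genes that were not, so these shares compare unlike sets. A match is a run of letters and not a measured binding site.

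No solute carrier gene passed the test for a difference between the antibiotics and untreated groups. The test was limma's moderated test on log2 intensity after background correction and quantile normalization, with Benjamini-Hochberg adjustment over all 6331 features measured. At an adjusted p of 0.05 it called 0 of 110 carriers and 0 of 6331 features (0%), and the smallest adjusted p among the carriers was 0.565. At an unadjusted p of 0.05, limma marked 7 of 110 carriers (6.36%), 4 higher (3.64%) and 3 lower (2.73%) with antibiotics. Over all features it marked 490 (7.74%), 3.41% higher and 4.33% lower. For 14 carriers (12.7%) the 3 antibiotics arrays all lay on one side of the 3 untreated arrays, 5 higher (4.55%) and 9 lower (8.18%). The same was true of 870 of all features (13.7%), 451 higher (7.12%) and 419 lower (6.62%). Both shares lie near those of the array as a whole. Log2 fold changes, antibiotics minus untreated throughout, were above 0 for 67 carriers (60.9%) against 53.6% of all features, with a median of 0.037 against 0.017. When arrays were scaled by their medians instead, the median over all features was -0.054. Then 52 of 110 carriers (median -0.021) and 40.6% of all features were above 0. Without the first untreated array 4 carriers had an unadjusted p under 0.05.

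**Figure D1:**
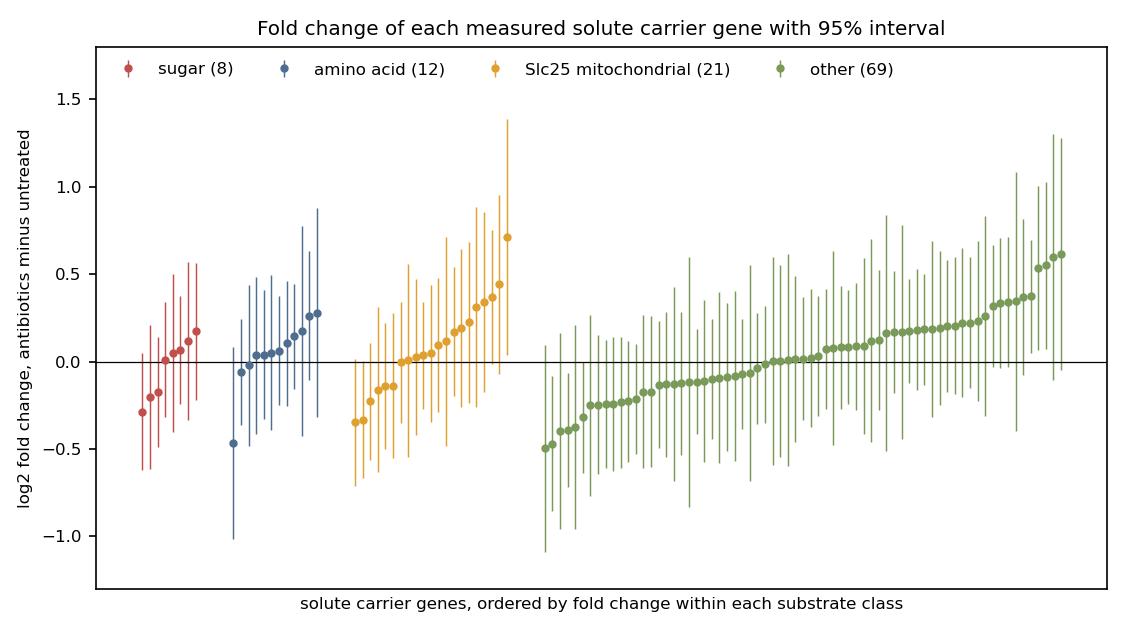
Log2 fold change (antibiotics minus untreated) of each of the 110 measured solute carrier genes, ordered within its substrate class, with limma's 95% confidence interval as bars. Values run between -0.50 and 0.71 and none passed the adjusted threshold.

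The 3 arrays a group set the precision. The 95% confidence interval of a carrier's log2 fold change had a median half-width of 0.404, with a range of 0.295 to 0.741, and the median SD within groups was 0.221 on the log2 scale. For 102 of the 110 genes the interval left out a 2-fold change of normalized intensity in either direction. The processing understates fold changes of dim genes, so for those a 2-fold change in transcript is not excluded. An absolute log2 fold change of 0.58 or more was seen for 3 genes, Slc25a47, Slc6a12 and Slc27a3, and of 1 or more for 0. Without the first untreated array these 3 values were 0.45, 0.28 and 0.43, and that of Slc27a3 was 0.37 without the third antibiotics array and 0.95 without the first.

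Detection differed widely between substrate groups, as the plot of genes on the array and genes detected shows. Mitochondrial carriers of the Slc25 family were measured most often of the 4 classes, 21 of 39 genes (53.8%), and amino acid carriers least often, 12 of 55 (21.8%). Sugar carriers were measured for 8 of 27 genes (29.6%) and all other carriers for 69 of 205 (33.7%). Within the last class, metal ion carriers were measured for 14 of 28 and the nucleotide-sugar carriers of the Slc35 family for 13 of 24, while carriers of monocarboxylates, fatty acids and other organic ions were measured for 10 of 56. Of the 110 genes, 93 were detected on all 6 arrays. Of the 216 genes not measured, 201 were detected on 0 arrays, 9 on 1 and 6 on 2.

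**Figure D2:**
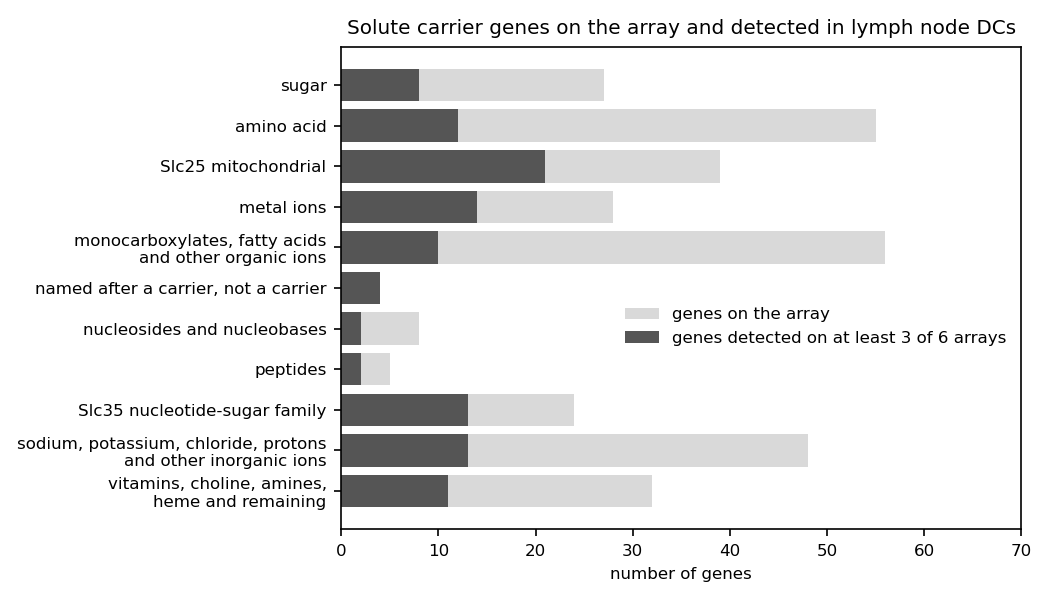
Number of solute carrier genes on the array (light bars) and detected on at least 3 of the 6 arrays (dark bars) in each substrate group. Slc25 mitochondrial carriers reach 21 of 39, and carriers of monocarboxylates and other organic ions 10 of 56.

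Several carriers known from immune cells were not detected on any array. These were Slc16a1 and Slc16a3, which carry lactate and other monocarboxylates, and Slc5a8, a sodium-coupled monocarboxylate carrier, so that no probe of these read above background in either group. Slc3a2, the heavy chain that brings Slc7a5 and Slc7a11 to the cell surface, Slc1a5, a glutamine carrier, and Slc7a2, an arginine carrier, were also detected on 0 arrays. So were Slc40a1, the iron exporter ferroportin, Slc39a4, a zinc importer, Slc19a1, a carrier of folate and cyclic dinucleotides, Slc37a2, a sugar-phosphate carrier, and Slc9a9, an endosomal sodium-proton exchanger. Slc38a9, the lysosomal arginine sensor, was detected on 1 array and Slc20a1, a phosphate carrier, on 2. A gene whose probe works poorly also reads as not detected. Slc25a4 and Slc4a7 had no symbol on the array and were not analysed here.

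Glucose carriers gave no difference that passed the test. Slc2a1, the widely expressed glucose carrier, had log2 levels of 6.53, 6.06 and 6.31 with antibiotics, against 5.93, 6.18 and 6.27 untreated (log2 fold change 0.17, 95% interval -0.22 to 0.56). Slc2a3, a high-affinity glucose carrier, had 7.60, 8.23 and 7.82 with antibiotics, against 8.07, 8.09 and 8.10 untreated (log2 fold change -0.20, interval -0.61 to 0.21). Both pairs of groups overlapped. Slc2a6, a lysosomal hexose carrier induced in activated mouse macrophages, had 9.47, 9.40 and 9.46 with antibiotics, against 9.93, 9.60 and 9.67 untreated. Every antibiotics array was below every untreated array, with a log2 fold change of -0.29 (SE 0.15, limma adjusted p = 0.702). Slc2a8, an intracellular hexose carrier, had 5.42, 5.23 and 5.42 with antibiotics, against 5.61, 5.47 and 5.50 untreated, again with no overlap (log2 fold change -0.18). Slc50a1, whose promoter is shown above, had 6.73, 7.34 and 6.81 with antibiotics, against 6.91, 6.62 and 6.999 untreated, and these overlapped (log2 fold change 0.12). Slc2a10, at a log2 fold change of 0.07, and the remaining pair of the class, Slc45a2 and Slc45a4, also overlapped. Averaged over the 8 sugar carriers, the arrays gave 6.52, 6.48 and 6.43 with antibiotics, against 6.51, 6.45 and 6.57 untreated.

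No amino acid carrier passed the test, and the class means of the groups overlapped. Slc7a5, which brings in leucine and other large neutral amino acids, had log2 levels of 6.78, 6.99 and 7.10 with antibiotics, against 6.82, 7.14 and 6.80 untreated (log2 fold change 0.04, 95% interval -0.33 to 0.41). Slc7a11, with 2 amino acid response elements in its promoter, had 7.49, 6.92 and 7.59 with antibiotics, against 7.17, 7.40 and 7.32 untreated (log2 fold change 0.04, interval -0.41 to 0.48). Slc38a2, a sodium-coupled carrier of small neutral amino acids, had 7.70, 8.37 and 8.24 with antibiotics, against 7.96, 8.31 and 8.11 untreated (log2 fold change -0.02, interval -0.48 to 0.44). All 3 overlapped, and their values are below the half-width of their intervals. The signs of Slc7a5 and Slc7a11 turned under median scaling, and that of Slc38a2 when its probes were averaged or the arrays were weighted. The signs of all 3 also turned when certain single arrays were left out. Slc7a7 had the lowest fold change of the class. Its levels were 5.91, 6.30 and 6.45 with antibiotics, against 7.04, 6.82 and 6.20 untreated, an overlap of 1 untreated array with the antibiotics range (log2 fold change -0.47, SE 0.24, limma adjusted p = 0.705). A further Slc7a7 probe gave -0.41. Slc1a7, a glutamate carrier, was the 1 gene of the class without overlap, with 5.67, 5.62 and 5.61 with antibiotics, against 5.59, 5.44 and 5.44 untreated (log2 fold change 0.14). The other carriers named by rank were Slc38a10 at a log2 fold change of 0.28, the lysosomal exporter of basic amino acids Slc66a1 at 0.26 and the aromatic amino acid carrier Slc16a10 at -0.06. Slc43a2, a carrier of large neutral amino acids, gave 0.06. In all, 9 of the 12 were above 0, with a median of 0.056, and the class mean was 6.63, 6.55 and 6.75 with antibiotics, against 6.54, 6.72 and 6.53 untreated.

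Genes that act with amino acid carriers were read from a list of 14 in mTORC1 sensing, of which 8 were measured. Of these 8, 7 had a log2 fold change above 0 (median 0.13), against 53.6% of all features. The mean level of the 8 overlapped between the groups. Lamtor2, a subunit of the lysosomal platform that recruits mTORC1, had a log2 fold change of 0.41 (SE 0.16, limma adjusted p = 0.605) with no overlap between groups. Mlst8, an mTORC1 subunit, had 0.36 with overlap. Of 12 transcriptional regulators listed, 2 were measured, and Atf4, whose motif was searched, was detected on 0 arrays. Over all 48 listed partners, sensors and regulators, 24 were measured, 14 above 0 and 10 below, with 0 calls after adjustment.

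Mitochondrial carriers held the largest single fold change among the carriers. Groups did not overlap for 4 of the 21 Slc25 genes, against 13.7% of all features. Slc25a47, known mainly from liver, had log2 levels of 5.66, 6.57 and 6.19 with antibiotics, against 4.89, 5.89 and 5.49 untreated (log2 fold change 0.71, SE 0.30, limma adjusted p = 0.629). The groups overlapped, and 1 untreated array did not detect the probe. Slc25a39, needed for glutathione in mitochondria, had 6.16, 5.78 and 5.69 with antibiotics, against 5.63, 5.39 and 5.50 untreated, with no overlap (log2 fold change 0.37, limma adjusted p = 0.635). Slc25a28, the mitochondrial iron importer mitoferrin-2, had 9.28, 9.52 and 9.84 with antibiotics, against 9.42, 9.21 and 8.69 untreated, with overlap (log2 fold change 0.44). Lower values came from Slc25a3, which brings phosphate into the matrix for ATP synthesis. It had 6.92, 6.79 and 6.75 with antibiotics, against 7.19, 7.38 and 6.93 untreated, so that every antibiotics array was lower (log2 fold change -0.35, SE 0.16, limma adjusted p = 0.641), and a further probe gave -0.59. Slc25a35 had 5.13, 5.11 and 5.22 with antibiotics, against 5.53, 5.63 and 5.28 untreated, near the detection limit and detected on 2 antibiotics arrays. Slc25a25, a calcium-regulated ATP-magnesium carrier, had 7.07, 6.87 and 6.98 with antibiotics, against 7.14, 7.09 and 7.38 untreated. The groups did not overlap for either, at log2 fold changes of -0.33 and -0.23, and neither passed the adjusted test.

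The carriers of central metabolism in this family lay close to 0. Slc25a5, which exchanges ADP and ATP, had log2 levels of 11.49, 11.39 and 11.43 with antibiotics, against 11.31, 11.40 and 11.49 untreated, a log2 fold change of 0.04 (95% interval -0.27 to 0.34). Slc25a1, the citrate carrier, gave -0.0049, Slc25a11, the oxoglutarate-malate carrier, gave 0.05, and Slc25a20, the carnitine-acylcarnitine carrier of fatty acid oxidation, gave -0.16. All 4 overlapped, and for each at least 1 alternative setting turned the sign. The channels of the outer mitochondrial membrane, through which these substrates pass, were on the partner list. Vdac3 had a log2 fold change of -0.39 (SE 0.15, limma adjusted p = 0.578) and Vdac1 -0.22, both with every antibiotics array below every untreated array, while Vdac2 gave 0.016 with overlap and a sign that turned under the median scaling. Of the 21 Slc25 genes, 14 were above 0 and 7 below (median 0.047). Their mean was 7.21, 7.15 and 7.15 with antibiotics, against 7.11, 7.11 and 7.03 untreated, the only one of the 4 class means in which the groups did not overlap, at a difference of 0.082 with no test. The mean over all 110 genes was 6.90, 6.92 and 6.91 with antibiotics, against 6.88, 6.86 and 6.87 untreated, also without overlap, at a difference of 0.038. The median of the class was 0.0070 under median scaling, where that of all features was -0.054.

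**Figure D3:**
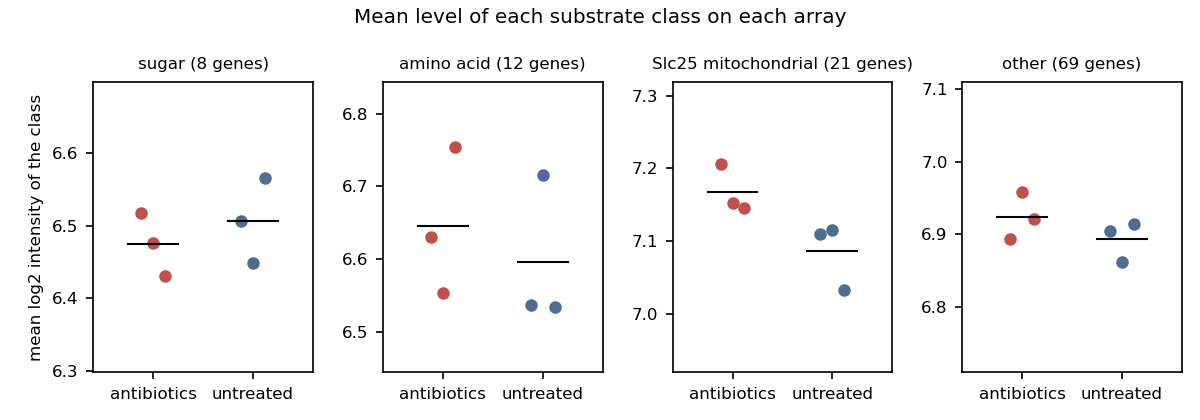
Mean log2 level of the measured genes of each substrate class on each array, antibiotics left and untreated right, 1 point per array. The groups overlap in the sugar, amino acid and other classes, and the 3 antibiotics points lie above the 3 untreated points in the Slc25 class.

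Among metal carriers, zinc transporters gave the smallest p-values, in both directions. Slc39a6, which brings zinc into the cytosol, had log2 levels of 6.51, 6.55 and 6.62 with antibiotics, against 6.98, 6.78 and 7.33 untreated. Every antibiotics array was lower, with a log2 fold change of -0.47 (SE 0.17, limma adjusted p = 0.565). Slc30a7, which loads zinc into the Golgi, had 7.74, 7.25 and 7.43 with antibiotics, against 6.64, 6.90 and 7.28 untreated, a log2 fold change of 0.53 (SE 0.21, limma adjusted p = 0.578) with 1 untreated array inside the antibiotics range. A further Slc30a7 probe gave 0.26. Slc39a13, which moves zinc out of intracellular vesicles, had 6.48, 7.01 and 7.60 with antibiotics, against 7.38, 7.60 and 7.60 untreated, a log2 fold change of -0.50 with overlap. The antibiotics arrays were widely spread for this gene and a further probe gave -0.28. Slc30a1, the plasma membrane zinc exporter and a known target of Mtf1, had 4.95, 5.44 and 5.42 with antibiotics, against 5.65, 5.19 and 5.49 untreated (log2 fold change -0.17), with overlap. Slc41a3, a magnesium carrier, had 7.38, 7.38 and 7.55 with antibiotics, against 7.27, 6.91 and 7.18 untreated, with no overlap (log2 fold change 0.32, limma adjusted p = 0.667). A further Slc41a3 probe gave 0.20.

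Iron carriers were measured for both Slc11 genes. Slc11a1, which moves iron and manganese out of phagosomes and is known for macrophage resistance to bacteria in mice, had log2 levels of 8.54, 9.21 and 8.84 with antibiotics, against 8.56, 8.29 and 8.63 untreated. The groups overlapped (log2 fold change 0.37, SE 0.20, limma adjusted p = 0.719), and a further probe gave 0.47. Slc11a2, the general iron importer, gave -0.12 (95% interval -0.83 to 0.60) with overlap. The groups overlapped for both copper carriers, Slc31a1 and Slc31a2. Of the 14 metal ion genes 8 were above 0 and 6 below, with a median of 0.084. In sorted cells read in bulk, fewer cells of a type and less RNA per cell cannot be told apart. Of the macrophage and monocyte list, 3 of 7 genes were measured, and their mean log2 level was 7.76 to 7.98 with antibiotics, against 7.59 to 7.67 untreated, without overlap, while its markers Fcgr1 and Mertk were detected on 0 arrays. Within the list, the log2 fold change was 0.54 for Lyz2 and 0.33 for Adgre1, both without overlap, and -0.08 for Cd14 with overlap. The part of this list in the Slc11a1 value was not tested.

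**Figure D4:**
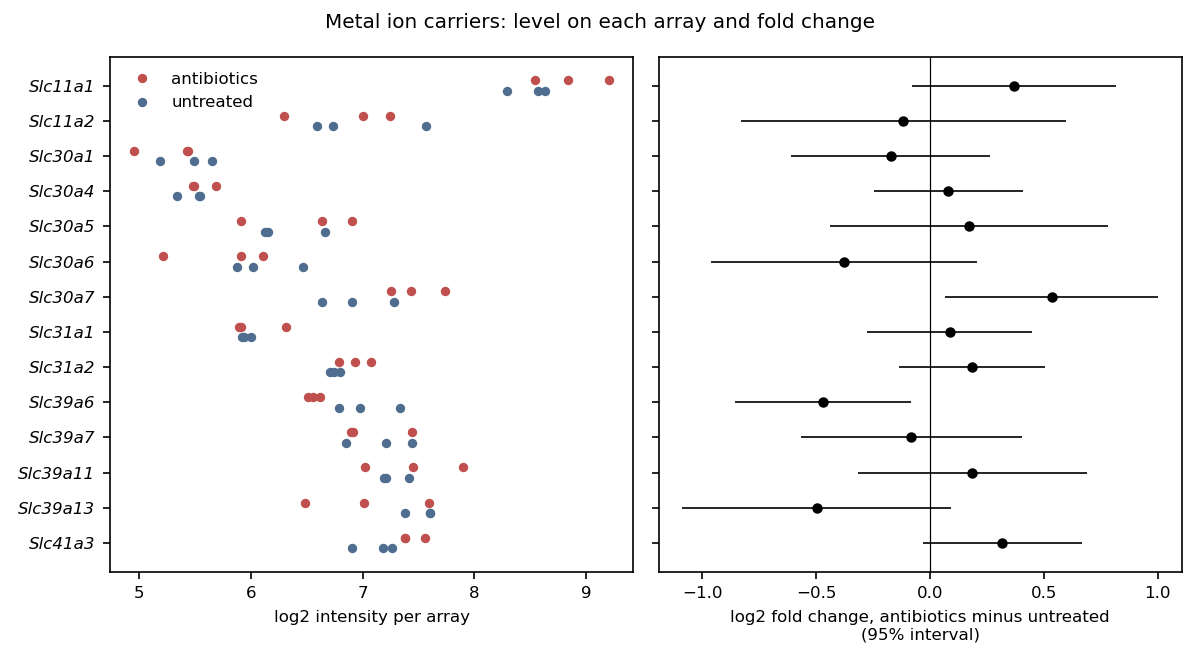
Left, normalized log2 level of the 14 measured metal ion carriers on each array of both groups, antibiotics and untreated. Right, log2 fold change (antibiotics minus untreated) of each gene with limma's 95% confidence interval. Slc39a6 and Slc41a3 are separated between the groups and the other genes overlap.

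Carriers of lysosomes and endosomes gave no difference that passed the test. Slc15a4, a peptide and histidine carrier required for endosomal Toll-like receptor signalling, had log2 levels of 9.34, 9.48 and 9.23 with antibiotics, against 9.82, 9.54 and 9.41 untreated (log2 fold change -0.24, 95% interval -0.61 to 0.12). Its relative Slc15a3 gave 0.0057, the nucleoside carrier Slc29a3 gave -0.11 and Slc46a3 gave -0.07, all with overlap. The sign of Slc15a3 turned under median scaling, with array weights and when certain single arrays were left out. Slc9a7, a sodium-proton exchanger of the trans-Golgi network, was the 1 carrier detected on 3 arrays of one group and 0 of the other. It averaged 4.87 ± 0.12 with antibiotics (SD, n = 3), not above background on any array, against 5.33, 5.32 and 5.14 untreated, without overlap. With the lowest detected signal of each antibiotics array as a ceiling, the untreated mean was 1.11-fold above the mean ceiling. That ratio takes no account of the spread between arrays. The log2 fold change was -0.39 (95% interval -0.72 to -0.067, limma adjusted p = 0.565). The gene passed the detection filter through the untreated group alone, so its separation and these values are a description and support nothing further.

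The Slc35 family moves nucleotide sugars and related donors into the Golgi and endoplasmic reticulum for glycosylation and sulfation, and 9 of its 13 measured genes were above 0 (median 0.072). Slc35b3, which carries the sulfate donor into the Golgi, had log2 levels of 9.30, 8.84 and 9.27 with antibiotics, against 8.25, 8.91 and 8.60 untreated. One untreated array lay within the antibiotics range, at a log2 fold change of 0.55 (SE 0.21, limma adjusted p = 0.575). A further Slc35b3 probe gave 0.54. Slc35b1, which supplies ATP to the endoplasmic reticulum, had 8.42, 8.47 and 8.54 with antibiotics, against 8.74, 8.56 and 8.78 untreated, every antibiotics array lower by a small margin (log2 fold change -0.22). Slc35c1, which carries GDP-fucose, gave 0.34 with overlap, and a further probe gave 0.024.

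Among the remaining carriers, Slc66a2 and Slc5a6 were separated in opposite directions. Slc66a2 had log2 levels of 9.47, 9.35 and 9.21 with antibiotics, against 8.92, 9.07 and 8.92 untreated (log2 fold change 0.37, SE 0.14, limma adjusted p = 0.575). Slc5a6, which brings in biotin and pantothenate, vitamins that gut bacteria also make, had 6.94, 7.05 and 7.21 with antibiotics, against 7.38, 7.39 and 7.40 untreated (log2 fold change -0.32, SE 0.14, limma adjusted p = 0.634). All 3 antibiotics arrays of Slc5a6 lay below the untreated arrays, which were close together. The largest positive values besides Slc25a47 had overlapping groups. Slc6a12, a betaine carrier, had 5.81, 5.79 and 6.21 with antibiotics, against 4.64, 5.84 and 5.48 untreated (log2 fold change 0.62). Slc27a3, an acyl-CoA synthetase of the fatty acid carrier family, had 7.27, 8.22 and 8.44 with antibiotics, against 7.03, 7.37 and 7.72 untreated (log2 fold change 0.60). Slc22a5, the plasma membrane carnitine carrier, gave 0.34, and a further probe gave 0.12. Slc7a6os, which is no carrier, was separated at 0.17.

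**Figure D5:**
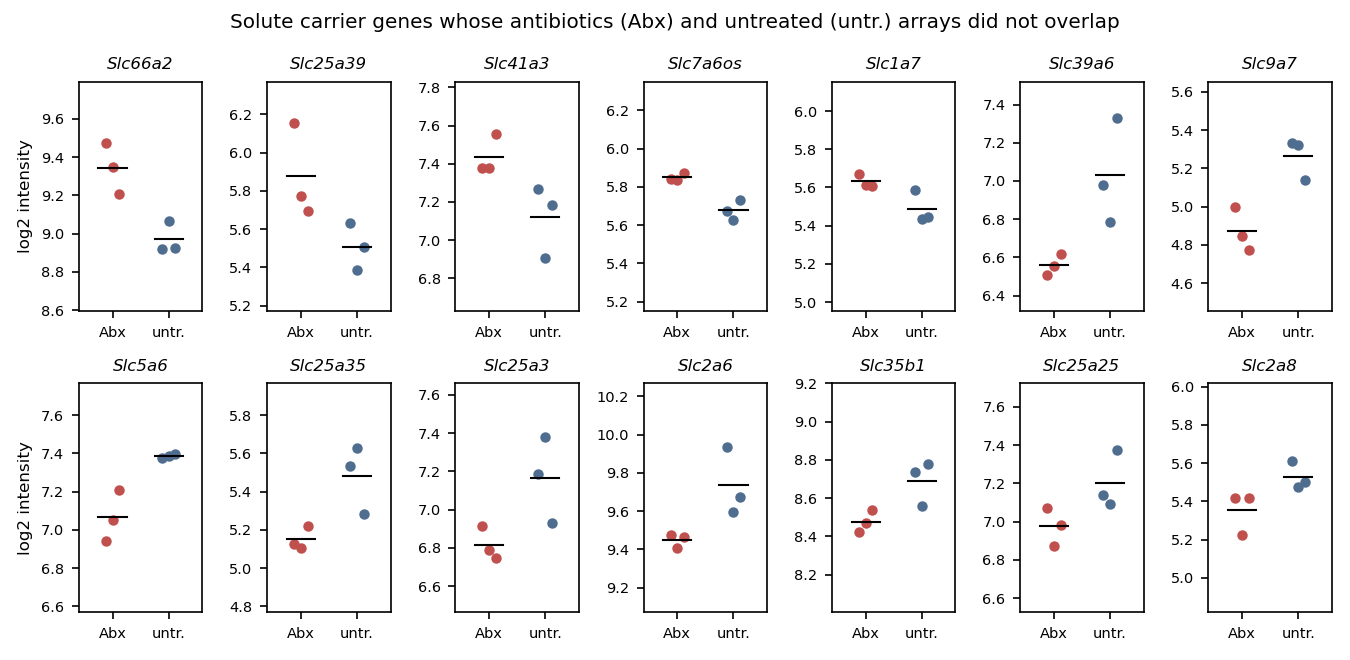
Normalized log2 level on each array of the 14 solute carrier genes whose antibiotics and untreated arrays did not overlap, antibiotics left and untreated right. In 5 genes the antibiotics arrays are higher and in 9 lower, at log2 fold changes between -0.47 and 0.37.

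Every antibiotics array detected fewer probes than every untreated array, 6876 to 7370 against 7422 to 7674, and the part of this in the carrier values was not tested. Of the carriers, 101 to 107 were detected on the antibiotics arrays, against 105 to 107 on the untreated arrays. Arrays correlated at 0.963 to 0.984 over all features. Of 6 core DC genes 5 were measured, among them Itgax and Zbtb46, while Flt3 was detected on 0 arrays. The mean log2 level of 3 measured B cell genes was 5.72 to 6.21 with antibiotics, against 6.47 to 6.70 untreated, with Cd79a, Ms4a1 and Pax5 detected on 0 arrays. That of 4 measured genes of type 1 conventional DCs was 7.78 to 7.93 with antibiotics, against 7.37 to 7.71 untreated, and that of 2 plasmacytoid DC genes was 7.90 to 8.09 against 8.17 to 8.53. These list means were separated between the groups, but single genes differed. Among the B cell genes, Cd79b gave a log2 fold change of -0.06 and Cd22 -0.79, both with overlap, and Fcmr -1.06 without. Of the conventional DC genes, Cadm1 gave 0.78, Xcr1 0.32, Irf8 0.16 and Batf3 0.03, with overlap for Xcr1 and Batf3, and Clec9a was detected on 0 arrays. Both plasmacytoid DC genes overlapped, and Ccr9 was detected on 0 arrays. The part of these lists in the carrier values was not tested.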

How the data were processed

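The sample labels gave the groups and replicate numbers. They do not tie the replicates to separate animals, so p-values reflect only the variation among these arrays, part or all of which may be technical. The authors deposited probe intensity that was neither background-corrected nor normalized between arrays, with a detection p-value per probe and array, per the file headers. The sources used here do not give the scanner settings. The neqc procedure of limma 3.58.1 in R 4.3.3 inferred background from the deposited detection p-values, added an offset of 16, quantile-normalized and took log2, so that fold changes of dim genes are understated and a change common to all genes is removed.

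Probes detected at p under 0.05 on at least 3 arrays were kept, 7507 (29.2%) of 25697, and the probe with the highest mean stood for a gene, which left 6331 features, 430 of them unnamed. Symbols came from the platform annotation (1 symbol for 23978 probes, none for 1719), and all 110 carrier symbols matched RefSeq. Groups were compared with lmFit and eBayes (8.57 degrees of freedom per gene), with Benjamini-Hochberg adjustment over all 6331 and a threshold of 0.05. The procedure was tested on simulated data. An exact permutation test of 3 against 3 cannot give a p under 0.1. Of 16 carriers with several kept probes, 4 differed in sign between probes (Slc25a11, Slc25a38, Slc30a5 and Slc38a2). Probe matches to near-identical gene copies were not analysed here.

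Carriers were taken by symbol and sorted into substrate classes by hand; the members and all gene lists were chosen with earlier results of these data known. Carriers were named if their groups did not overlap (up to 10 a direction by p) or if among the 3 smallest p-values per class and direction. They were also named if detected in 1 group only, or from a list of carriers given whatever their value. Of the partner list, the genes with the smallest p-values were named. Slc6a12, Slc27a3, Slc35c1, Slc22a5, Slc39a13 and Vdac2 were named after their values were seen, where the rule had not named them. Alternatives were other background, scaling, filter and probe rules, the authors' normalized intensity, array weights, a replicate block and each array left out. A second deposited table of normalized intensity had 44.6% of values below 0 and was used only as an alternative, and the series' value table equalled it in all 154182 cells.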

Additional observations from a re-analysis of the deposited data

How the results depend on the processing

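The count of carriers with an adjusted p under 0.05 was 0 under all 16 alternatives run, and the smallest adjusted p lay between 0.251 with array weights and 0.829 without the first untreated array. The 16 include the authors' normalized table and the series table, which hold the same values and so are not separate checks. The count at an unadjusted p under 0.05 was 7, and became 3 with median scaling, 12 with array weights and 25 of 326 with no filter on dim probes, and 4 to 8 when 1 array was left out, the lowest without the first untreated array. The carriers' median log2 fold change of 0.037 was 0.022 with no background correction, -0.021 with median scaling, 0.0096 with no filter, 0.047 for genes detected on all 6 arrays, 0.046 from the authors' normalized table and from the series table, 0.049 with averaged probes and 0.028 with array weights. With 1 array left out it was 0.0078 (without the first antibiotics array) to 0.043. Median scaling lowered the median of all features to -0.054, against 0.017 before, and gave class medians of 0.0070 for Slc25 and -0.068 for the other carriers. Leaving out 1 array gave class medians of -0.062 to 0.052 for sugar and -0.00049 to 0.17 for amino acid carriers.

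Of 51 genes named with a fold change, 39 kept their sign in every alternative. The replicate block could not turn a sign, and the authors' normalized table and the series table hold the same values. Under median scaling, signs turned for Slc7a5 (-0.064), Slc7a11 (-0.051), Slc25a5 (-0.068), Slc25a11 (-0.071), Slc15a3 (-0.11) and Vdac2 (-0.084). They also turned with averaged probes for Slc38a2 (0.13), and with array weights for Slc38a2 (0.025), Slc25a11 (-0.076) and Slc15a3 (-0.026). The causes of the turns were not tested. With 1 array left out, log2 fold changes spanned -0.32 to 0.19 for Slc11a2, -0.19 to 0.18 for Slc15a3, -0.11 to 0.071 for Slc25a1, -0.10 to 0.13 for Slc25a11, -0.33 to 0.0050 for Slc25a20, -0.0091 to 0.081 for Slc25a5, -0.33 to 0.017 for Slc29a3, -0.16 to 0.18 for Slc38a2, -0.070 to 0.23 for Slc50a1, -0.093 to 0.24 for Slc7a11, -0.033 to 0.15 for Slc7a5 and -0.023 to 0.047 for Vdac2.

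Both groups carry replicate numbers 1 to 3, and deviations of arrays with the same number correlated at -0.046, -0.060 and -0.15, so the numbers were not taken as pairs. With the replicate block, 5 carriers had an unadjusted p under 0.05 and 0 passed adjustment. Both groups hold the same numbers, so the block cannot change a fold change, and the carriers' median of 0.037 was fixed in advance.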
